A study of Mus musculus with 12 samples.

Results

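Organic anion and cation transporters carry drugs, toxins, urate, steroid conjugates, prostaglandins and carnitine across the cells of the kidney tubule. The genes described here belong to 3 families, the Slc22 genes (organic anion, organic cation and carnitine carriers), the Slc47 genes (proton-coupled cation extruders) and the Slco genes (organic anion transporting polypeptides, OATP). They were taken by gene symbol alone. Of 23183 symbols 43 matched, and 29 of these had at least 0.5 FPKM in at least 3 of the 12 libraries and are described. FPKM divide the fragments of a gene by its transcript length and the library's depth, so levels can be set side by side between genes. Kidney cortex was collected on day 7 after unilateral ureteral obstruction (UUO), the closing of the ureter on a single side. The mice were male C57BL/6N, aged 6 to 7 weeks at the operation. The 4 groups of 3 libraries were Acot12+/+ contralateral (CL), Acot12+/+ UUO, Acot12-/- CL and Acot12-/- UUO kidneys, where the CL kidney is the unobstructed kidney on the other side. Acot12+/+ mice were wild type, and Acot12-/- mice lacked the acyl-CoA thioesterase Acot12 in all cells through a germline mutation made with an RNA-guided endonuclease. All 4 groups came from operated mice.

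In the proximal tubule, organic anions enter from the blood side through OAT1 (Slc22a6) and OAT3 (Slc22a8) in exchange for dicarboxylates, and organic cations enter through carriers such as OCT2 (Slc22a2). Cations leave into the urine through the apical extruder MATE1 (Slc47a1) and anions through other apical carriers, whereas apical URAT1 (Slc22a12) takes urate and OCTN2 (Slc22a5) takes carnitine back from the urine. Several of these genes are used as signs of a mature proximal tubule cell. Of the 14 matching genes below the minimum, Slc22a20, Slco6b1, Slco6c1 and Slco6d1 are listed at 0 in all 12 libraries. Slc22a3 (OCT3) reached 0.619 FPKM and the pseudogene Slc22a13b-ps reached 0.536 FPKM, each in a single library above the minimum. Slc22a14, Slc22a16, Slc22a27, Slc47a2, Slco1a5, Slco1b2, Slco1c1 and Slco5a1 had at most 0.289 FPKM in every library.

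The library total by which the FPKM were divided, read from the steps between low values, was lower for CL than for UUO libraries (12.4 to 16.2 against 18.4 to 23.0, in units of 1000000 fragments). The sources do not say whether it is the fragments sequenced or a total rescaled in normalisation. A difference in sequencing depth is therefore not shown. Acot12 had 52.7 to 78.1 FPKM on the CL side and 9.98 to 21.2 on the UUO side of Acot12+/+ mice. Its values of 6.80 to 9.15 and 1.80 to 3.86 FPKM in Acot12-/- mice were lower on both sides, with no overlap. Acot12-/- CL replicate 2 stood apart from its group (Pearson r of log2 values across genes 0.953 and 0.943 with the other replicates, which had 0.982 with each other), and results of described genes that rest on it are given with and without it. The labels number the kidneys but do not say which mice they came from, so p-values measure the spread between these libraries. Proximal tubule markers were present in every group, and the summed FPKM of 13 of the 14 markers fixed for this cell type was 5991 to 13485 in CL and 610 to 2608 in UUO libraries. The 14th, Kap, is listed at 0 in 3 CL libraries and reaches 189588 FPKM in another, and was left out of that sum after its values were seen.

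Of the 29 described genes 8 lie on chromosome 19, where Slc22a19, Slc22a26, Slc22a28, Slc22a29 and Slc22a30 form a rodent cluster of organic anion transporters beside Slc22a6 and Slc22a8. Of the 29 genes 24 have a promoter in the RefSeq table (GRCm38.p6), taken as 250 bases before and 50 bases after a transcription start. These 24 genes have 28 promoters in all. A gene is counted below if any of its promoters holds a motif. Shares of all promoters count each promoter, so the paired percentages differ in unit. A 13-base motif of the HNF1 factors, which act in proximal tubule cells, was sought on both strands as GTTAATNATTAAC with at most 2 mismatches. It was found at 3 of the 24 genes (12.5%; 1.36% of all 32851 promoters hold it), namely Slc22a22, Slc22a29 and Slc22a30. Its first 6 letters, GTTAAT, which overlap the long motif, were found with no mismatch at Slc22a6, Slc22a8 and Slc22a29 (12.5%; 7.10% of all promoters). An HNF4 motif, CAAAGTCCA with at most 1 mismatch, was found at Slc22a19, Slc22a22, Slc22a28, Slc22a29, Slc22a30 and Slco1a6 (25.0%; 8.47% of all promoters). The 250 bases before the start are printed for the 3 genes with the long motif and for Slc22a28, the nearest relative of Slc22a30 in the cluster, to show how alike neighbours are whose mRNA is compared later. Slc22a22 has 2 starts in the table, and the one with the match is printed. Capitals mark the match to the HNF1 motif.
Slc22a22, chr15:57265162-57265411, minus strand: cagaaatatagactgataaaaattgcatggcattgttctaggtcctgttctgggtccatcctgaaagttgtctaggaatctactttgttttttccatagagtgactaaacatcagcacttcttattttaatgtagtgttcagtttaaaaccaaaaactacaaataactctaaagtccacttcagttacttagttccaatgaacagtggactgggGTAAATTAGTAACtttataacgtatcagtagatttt
Slc22a28, chr19:8131983-8132232, minus strand: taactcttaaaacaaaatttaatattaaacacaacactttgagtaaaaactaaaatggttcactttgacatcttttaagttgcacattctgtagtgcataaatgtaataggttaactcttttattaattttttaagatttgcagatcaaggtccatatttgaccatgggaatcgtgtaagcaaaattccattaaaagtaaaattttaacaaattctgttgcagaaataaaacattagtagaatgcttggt
Slc22a29, chr19:8218901-8219150, minus strand: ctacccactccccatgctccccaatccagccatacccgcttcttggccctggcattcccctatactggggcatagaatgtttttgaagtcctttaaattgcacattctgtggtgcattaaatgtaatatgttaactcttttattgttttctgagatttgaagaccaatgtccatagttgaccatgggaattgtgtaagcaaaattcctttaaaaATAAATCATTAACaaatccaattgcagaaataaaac
Slc22a30, chr19:8405106-8405355, minus strand: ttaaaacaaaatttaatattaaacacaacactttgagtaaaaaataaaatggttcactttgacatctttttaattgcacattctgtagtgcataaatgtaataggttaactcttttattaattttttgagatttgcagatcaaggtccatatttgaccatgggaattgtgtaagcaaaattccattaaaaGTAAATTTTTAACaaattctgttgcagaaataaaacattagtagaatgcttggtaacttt
Aligned over these bases, the promoters of Slc22a28 and Slc22a30 were 93.0% identical, those of Slc22a28 and Slc22a29 65.1%, and those of Slc22a29 and Slc22a30 63.6%. The match began 36 bases before the start in Slc22a22 and Slc22a29 and 60 bases before it in Slc22a30. The shares above count these neighbours as separate genes although their promoters are this alike, so the counts are not independent. A match describes letters and does not show that a factor binds there.

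In Acot12+/+ CL kidneys the levels of the described genes ran from Slc22a12 at 542, 522 and 833 FPKM down to Slc22a15 at 0.315, 0.302 and 0.270 FPKM. Slc22a12 was the highest of the genes in 11 of 12 libraries. Its range lay clear of that of the next gene, Slc22a18, in Acot12+/+ CL kidneys. In Acot12-/- CL kidneys the ranges of both genes overlapped only through replicate 2. Slc22a12 had 301.1 FPKM in it beside 938 and 977 in the others, and Slc22a18 had 176 beside 399 and 419. Next in falling order came Slc22a18, Slc22a6, Slc47a1, Slco1a1, Slco1a6, Slc22a2, Slc22a7 and Slc22a19. The ranges of neighbours in this stretch overlapped, so the order within it is not resolved by 3 libraries. Over the 28 neighbouring pairs of the order, the ranges overlapped for 18 (CL) and 25 (UUO) in Acot12+/+ and for 23 (CL) and 27 (UUO) in Acot12-/- mice. The 5 highest genes held 48.4% to 68.3% of the summed FPKM of the described genes in a library. With UUO that sum went from 2675, 2318 and 3387 FPKM to 423, 551 and 1028 FPKM in Acot12+/+ mice. The Acot12-/- sums were 3884, 2272 and 3723 FPKM for CL libraries and 885, 295 and 945 FPKM for UUO libraries, and CL and UUO libraries did not overlap.

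**Figure D1:**
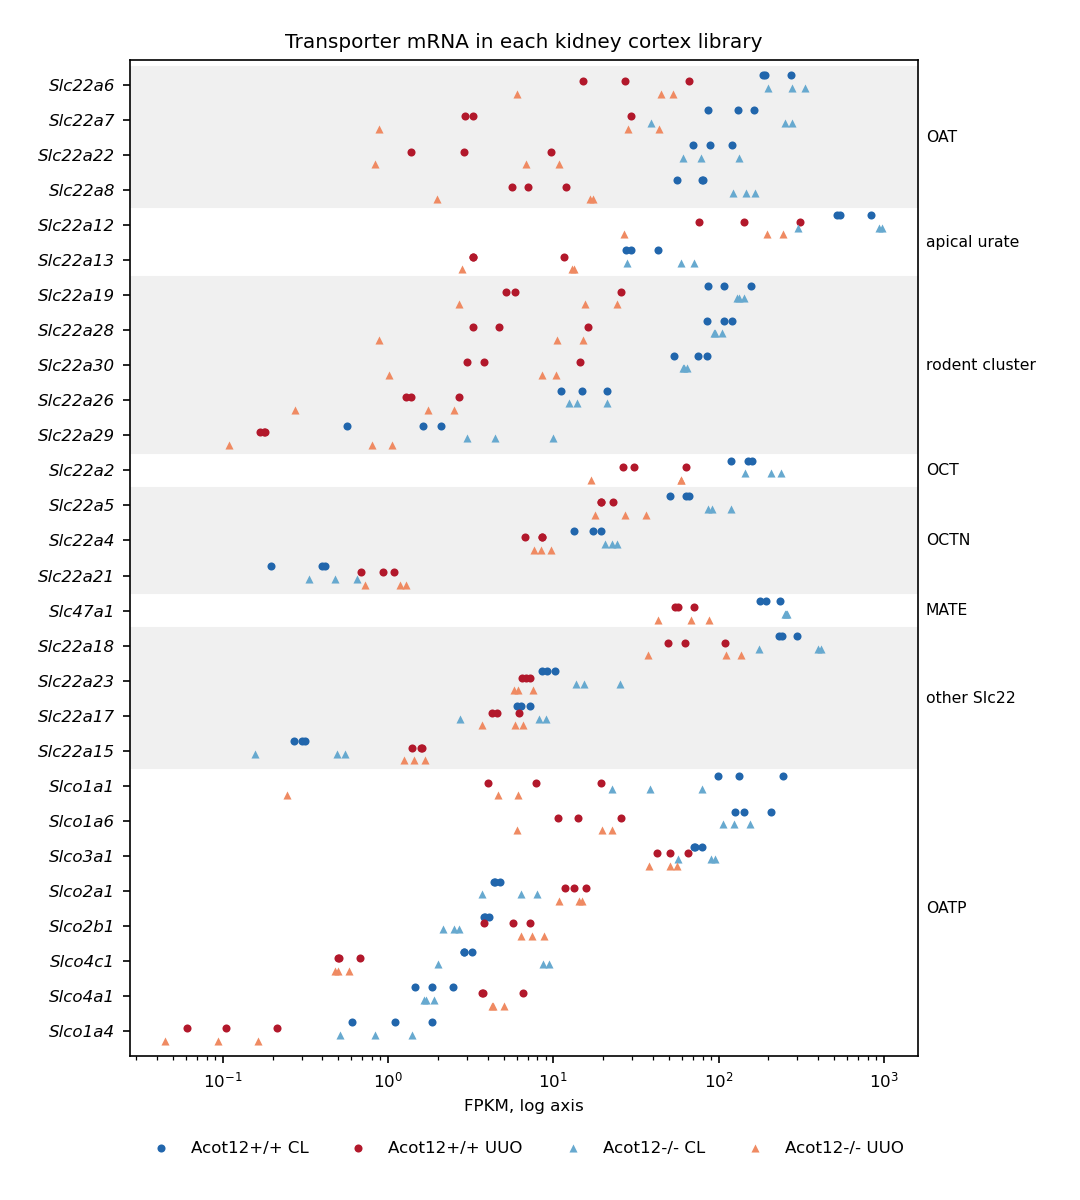
FPKM of 28 of the described transporter genes (log axis) in each of the 12 libraries, 1 point per library, coloured by group and ordered by class. For most OAT, urate, cluster and MATE genes the UUO points lie to the left of the CL points, while Slc22a15, Slc22a21, Slco2a1 and Slco4a1 lie to the right.

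The first question was how the transporters changed with obstruction in Acot12+/+ kidneys. Of the 29 described genes 21 fell and 4 rose (limma on log2(FPKM + 1), Benjamini-Hochberg adjusted p under 0.05 over all 14260 genes tested). Among all genes tested 22.6% were called lower and 23.9% higher, 46.5% in all. The median log2 fold change was -1.72 over the described genes and 0.03 over all genes. All UUO libraries were lower than all CL libraries for 23 of the 29 genes and higher for 4, and such separation was seen for 34.1% (lower) and 35.7% (higher) of all genes. In Acot12-/- kidneys 23 of the 29 genes fell and 5 rose, beside 25.6% and 27.5% of all genes (53.1% in either direction), with a median of -1.997 against 0.02. There the groups did not overlap for 22 genes lower and 5 higher, beside 26.2% and 29.0% of all genes. The fall was called in both genotypes for 21 genes and the rise for Slc22a15, Slc22a21, Slco2a1 and Slco4a1. Slc22a23 and Slco3a1 were called lower and Slco2b1 higher in Acot12-/- kidneys alone, and Slc22a17 was called in neither. Slco1a4 reached the 0.5 FPKM minimum only through CL libraries, so its difference follows in part from the choice of genes. Slc22a29 reached it in 8 libraries, every CL library but too few UUO libraries to pass alone, so the same holds for its fall. Slc22a15 and Slc22a21 reached it in 7 libraries each, 6 UUO and 1 CL, so the same holds for their rise.

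**Figure D2:**
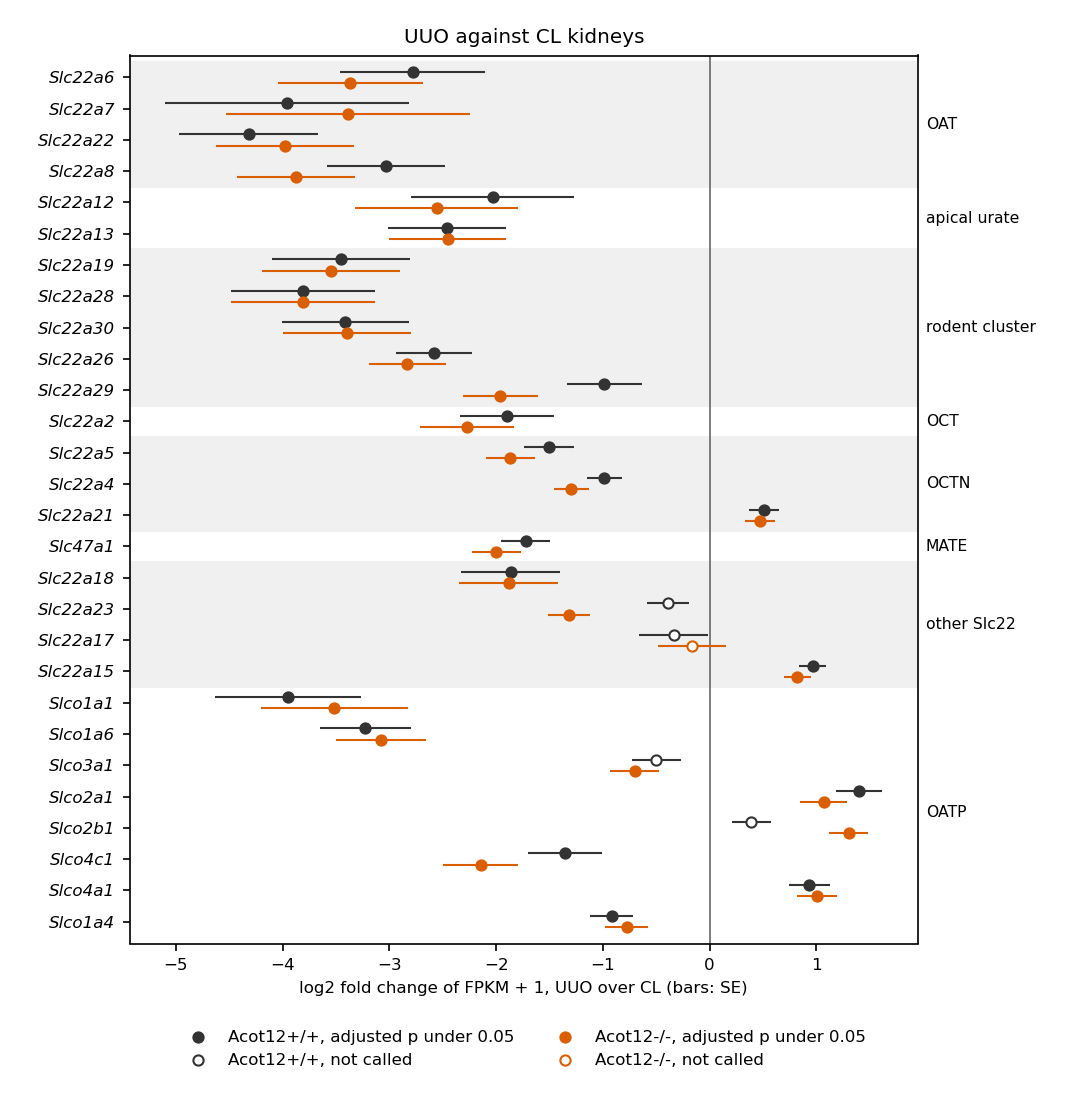
Log2 fold change of FPKM + 1 from CL to UUO kidneys for 28 of the described genes in Acot12+/+ (dark) and Acot12-/- (orange) mice, with bars of 1 SE; filled points have an adjusted p under 0.05. Values run from -4.32 (Slc22a22) to 1.40 (Slco2a1) in Acot12+/+ kidneys, and the falls of the OAT and cluster genes exceed those of Slc22a2 and the OCTN and MATE genes in both genotypes for all but Slc22a29.

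All 4 described OAT genes fell in both genotypes. Slc22a22 encodes the prostaglandin carrier OAT-PG and had 89.0, 70.2 and 120 FPKM on the CL side and 1.37, 2.87 and 9.66 on the UUO side of Acot12+/+ mice. Every UUO value lay under every CL value, and the means of 93.1 ± 25.1 and 4.63 ± 4.42 FPKM (SD, n = 3) differed 20.1-fold (log2 fold change -4.32, SE 0.65, limma adjusted p 0.000246). Acot12-/- mice had 78.8, 133 and 60.7 FPKM on the CL side and 10.8, 0.835 and 6.80 on the UUO side (-3.98, SE 0.65, limma adjusted p 0.000293). Slc22a6, which encodes OAT1 (chromosome 19, 8618039 to 8628299, plus strand, in the GENCODE annotation of GRCm38), had 191, 186 and 275 FPKM on the CL side and 15.1, 27.2 and 66.4 on the UUO side of Acot12+/+ mice. Acot12-/- mice had 334, 200 and 279 FPKM on the CL side and 53.2, 6.00 and 44.5 on the UUO side, again with no overlap, and the means were 6.00-fold and 7.84-fold lower after UUO in Acot12+/+ and Acot12-/- mice. Slc22a8, which encodes OAT3 and lies beside Slc22a6, had 56.1, 79.4 and 80.6 FPKM on the CL side and 5.64, 7.02 and 12.0 on the UUO side of Acot12+/+ mice (8.76-fold lower). It went from 167, 122 and 147 to 16.7, 1.97 and 17.3 FPKM in Acot12-/- mice (12.1-fold lower).

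Slc22a7, which encodes OAT2, was the least even of the 4. It had 164, 86.6 and 131 FPKM on the CL side and 3.27, 2.92 and 29.5 on the UUO side of Acot12+/+ mice (log2 fold change -3.95, SE 1.14, limma adjusted p 0.0139). In Acot12-/- CL kidneys replicate 2 had 39.0 FPKM beside 278 and 251 in the others, and the UUO values of 28.2, 0.884 and 43.9 FPKM overlapped it (-3.39, SE 1.14, limma adjusted p 0.0254). The call was lost without Acot12+/+ UUO replicate 1 or 2 in Acot12+/+ mice. It was lost without Acot12-/- CL replicate 1 or 3 or Acot12-/- UUO replicate 2 in Acot12-/- mice, with log2 fold changes from -4.30 to -1.96 when each library was left out in turn.

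The apical urate carriers fell in both genotypes with a wide spread between libraries. Slc22a12 (URAT1) had 542, 522 and 833 FPKM on the CL side and 75.9, 143 and 312 on the UUO side of Acot12+/+ mice, and the groups did not overlap. Acot12-/- mice had 938, 301.1 and 977 FPKM on the CL side and 197, 26.8 and 246 on the UUO side. The log2 fold changes were -2.03 in Acot12+/+ (SE 0.76, limma adjusted p 0.0452) and -2.56 in Acot12-/- mice (limma adjusted p 0.0138). The Acot12+/+ call was lost without any Acot12+/+ CL library, Acot12+/+ UUO replicate 1 or 2, or Acot12-/- CL replicate 1 or 3. Its log2 fold change ran from -2.56 to -1.54 over the 12 libraries left out in turn, and its adjusted p from 0.00144 to 0.166 over all alternatives. Slc22a13, which encodes the urate and nicotinate carrier OAT10, had 43.0, 27.4 and 29.4 FPKM on the CL side and 3.25, 3.25 and 11.7 on the UUO side of Acot12+/+ mice. It went from 70.9, 27.9 and 59.2 to 13.3, 2.81 and 13.0 FPKM in Acot12-/- mice, where replicate 2 was again the lowest on both sides. Slc22a13 shares 36.01% of its transcript's 50-base words with Slc22a13b-ps, so reads could be divided between them. Slc22a12 overlaps Nrxn2 on the opposite strand, which reached 1.99 FPKM.

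The 5 described genes of the rodent cluster fell in both genotypes. Slc22a19 (OAT5, an apical carrier of steroid sulfates) had 157, 86.1 and 107 FPKM on the CL side and 5.19, 5.90 and 25.5 on the UUO side of Acot12+/+ mice, a 9.56-fold difference of means (log2 fold change -3.45, SE 0.65). Its Acot12-/- values were 142, 128 and 133 FPKM on the CL side and 15.6, 2.69 and 24.3 on the UUO side. Slc22a28 went from 108, 85.4 and 121 to 3.25, 4.69 and 16.3 FPKM in Acot12+/+ and from 95.2, 104 and 93.6 to 15.03, 0.885 and 10.6 FPKM in Acot12-/- mice (13.0-fold and 11.1-fold lower). Slc22a30 went from 75.1, 53.9 and 85.1 to 3.02, 3.80 and 14.5 FPKM and from 61.8, 64.2 and 60.8 to 10.4, 1.011 and 8.49 FPKM (10.1-fold and 9.41-fold lower). Slc22a28 was above Slc22a30 in 11 of 12 libraries, and the neighbours whose promoters are 93.0% identical also share sequence in their mRNA. Slc22a28 shares 53.9% of its 50-base words with other members, nearly all with Slc22a30, so their levels are uncertain one against the other. Slc22a26 went from 21.2, 11.1 and 14.9 to 1.38, 1.28 and 2.69 FPKM in Acot12+/+ and from 21.1, 13.8 and 12.5 to 1.76, 0.274 and 2.49 in Acot12-/- mice.

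Slc22a29 was expressed far lower than its neighbours, and would not have passed the minimum without the CL libraries. It had 0.566, 2.09 and 1.63 FPKM on the CL side and 0.177, 0.167 and 0.181 on the UUO side of Acot12+/+ mice (log2 fold change -0.99, SE 0.35, limma adjusted p 0.0360). This call was lost without any Acot12+/+ UUO library or Acot12+/+ CL replicate 2 or 3, and with the replicate block (adjusted p 0.0622). Over all libraries left out in turn its log2 fold change ran from -1.28 to -0.79. Acot12-/- mice had a fall from 4.46, 10.01 and 3.02 to 1.05, 0.109 and 0.803 FPKM (-1.96, limma adjusted p 0.000582). Slc22a29 shares 30.5% of its 50-base words with other members, mostly with Slc22a27, which stayed at or under 0.278 FPKM.

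The organic cation carrier OCT2 and the cation extruder MATE1 fell, and by less than the OAT genes. Slc22a2 (OCT2) went from 151, 119 and 159 to 26.2, 30.9 and 63.8 FPKM in Acot12+/+ and from 239, 145 and 209 to 59.5, 16.9 and 59.4 FPKM in Acot12-/- mice (3.55-fold and 4.37-fold lower). Slc47a1 (MATE1) had 193, 179 and 236 FPKM on the CL side and 54.6, 56.6 and 71.2 on the UUO side of Acot12+/+ mice. In Acot12-/- mice it had 260, 252 and 257 FPKM on the CL side and 87.4, 42.9 and 68.1 on the UUO side. Its log2 fold changes of -1.72 and -1.997 had an SE of 0.23 and limma adjusted p of 0.000113 and 2.46e-05, and no fit that left out a library lost either call. The CL and UUO libraries did not overlap in either genotype for either gene.

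Of the OCTN genes, Slc22a5, the sodium-coupled carnitine carrier OCTN2, fell from 63.9, 50.6 and 66.4 to 19.3, 19.3 and 22.9 FPKM in Acot12+/+ mice (log2 fold change -1.51, SE 0.23, limma adjusted p 0.000285). The fall in Acot12-/- mice was from 118, 91.5 and 86.7 to 36.5, 17.8 and 27.3 FPKM (-1.87). Slc22a4, the ergothioneine carrier OCTN1, fell from 17.5, 13.3 and 19.4 to 6.73, 8.51 and 8.499 FPKM in Acot12+/+ mice (-0.99) and from 24.2, 22.8 and 20.5 to 9.70, 8.37 and 7.66 in Acot12-/- mice (-1.30). Slc22a21 (Octn3), between the other two on chromosome 11, moved the other way at a low level. It rose from 0.397, 0.196 and 0.415 to 0.930, 0.685 and 1.08 FPKM in Acot12+/+ (0.51, SE 0.14, limma adjusted p 0.0120) and from 0.646, 0.334 and 0.476 to 1.18, 1.28 and 0.722 in Acot12-/- mice (0.47, limma adjusted p 0.0150). The Acot12-/- call was lost without UUO replicate 1 or 2. Slc22a21 and Slc22a5 share 24.2% and 27.1% of their 50-base words with other members, nearly all with each other, so reads could be divided between them.

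The other Slc22 genes did not move as a group. Slc22a18, a carrier of uncertain substrate next to imprinted genes on chromosome 7, fell from 243, 232 and 297 to 49.4, 62.3 and 109 FPKM in Acot12+/+ mice (3.49-fold). Its fall in Acot12-/- mice was from 399, 176 and 419 to 112, 37.6 and 136 FPKM (3.49-fold). Slc22a15 rose from 0.315, 0.302 and 0.270 to 1.40, 1.597 and 1.59 FPKM in Acot12+/+ mice (log2 fold change 0.96, SE 0.13, limma adjusted p 0.000102). It rose from 0.156, 0.549 and 0.488 to 1.24, 1.68 and 1.44 FPKM in Acot12-/- mice (0.82). Slc22a17, a receptor of the injury protein lipocalin 2, had 6.40, 7.25 and 6.00 FPKM on the CL side and 4.25, 4.57 and 6.22 on the UUO side of Acot12+/+ mice, which overlap (-0.34, SE 0.32, limma adjusted p 0.408). Its Acot12-/- values were 9.03, 2.74 and 8.20 FPKM on the CL side and 6.54, 3.72 and 5.85 on the UUO side (-0.17, limma adjusted p 0.686; -0.62 and 0.0188 without CL replicate 2). Slc22a23, an orphan carrier, had 9.14, 8.51 and 10.2 FPKM on the CL side and 6.87, 6.45 and 7.19 on the UUO side of Acot12+/+ mice. That difference did not pass the test (-0.39, SE 0.20, limma adjusted p 0.126; called without Acot12-/- CL replicate 1, with only the groups compared and, at 0.0497, with the replicate block) although the groups did not overlap. In Acot12-/- mice Slc22a23 fell from 25.4, 15.3 and 13.7 to 7.57, 6.07 and 5.76 FPKM (-1.32, limma adjusted p 0.000177).

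Of the 8 described OATP genes 4 fell and 2 rose in Acot12+/+ kidneys, and 5 fell and 3 rose in Acot12-/- kidneys. The falls were steepest in Slco1a1 (OATP1A1), an apical carrier of steroid conjugates. It had 133, 98.96 and 247 FPKM on the CL side and 4, 7.84 and 19.3 on the UUO side of Acot12+/+ mice (15.4-fold lower; log2 fold change -3.95, SE 0.69, limma adjusted p 0.000654). In Acot12-/- mice it had 79.6, 22.6 and 38.4 FPKM on the CL side and 6.12, 0.246 and 4.64 on the UUO side (12.8-fold lower). Slco1a6 fell from 143, 126 and 209 to 10.7, 14.1 and 25.8 FPKM in Acot12+/+ and from 107, 155 and 123 to 22.7, 6.07 and 19.6 in Acot12-/- mice (9.46-fold and 7.95-fold). Slco1a4, best known from liver and the blood-brain barrier, had 1.10, 0.606 and 1.84 FPKM on the CL side and 0.0610, 0.105 and 0.212 on the UUO side of Acot12+/+ mice (-0.92), and its fall in Acot12-/- mice was by 0.78 on the log2 scale. Slco4c1, a carrier of digoxin and thyroid hormone on the blood side, fell from 3.21, 2.88 and 2.88 to 0.504, 0.676 and 0.496 FPKM in Acot12+/+ mice (-1.36, SE 0.35). It fell from 9.35, 8.69 and 2.02 to 0.481, 0.5 and 0.578 FPKM in Acot12-/- mice (-2.14). The antisense gene Panct2 overlaps Slco4c1 and reached 2.55 FPKM. The library kit keeps the strand, but how strand was used in counting is not given in the sources used here.

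Slco2a1, the prostaglandin transporter PGT, rose from 4.77, 4.43 and 4.35 to 11.7, 13.4 and 15.7 FPKM in Acot12+/+ mice (log2 fold change 1.40, SE 0.22, limma adjusted p 0.000315). It rose from 7.97, 3.698 and 6.36 to 14.2, 14.9 and 10.8 FPKM in Acot12-/- mice (1.07, limma adjusted p 0.00140). Slco4a1, a carrier of thyroid hormone, rose from 2.48, 1.84 and 1.46 to 3.71, 3.76 and 6.55 FPKM in Acot12+/+ and from 1.71, 1.66 and 1.89 to 4.32, 4.24 and 5.01 in Acot12-/- mice (0.93 and 1.00). Slco2b1 had 4.07, 3.85 and 3.81 FPKM on the CL side and 5.67, 3.81 and 7.26 on the UUO side of Acot12+/+ mice, which overlap (0.39, SE 0.18, limma adjusted p 0.103; 0.60 and 0.0175 without UUO replicate 2). It rose from 2.15, 2.52 and 2.69 to 7.45, 6.41 and 8.82 FPKM in Acot12-/- mice (1.30, limma adjusted p 0.000109). Slco3a1 had 70.7, 71.8 and 79.1 FPKM on the CL side and 42.1, 50.5 and 65.7 on the UUO side of Acot12+/+ mice (-0.50, SE 0.23, limma adjusted p 0.0909). It was called with the replicate block (adjusted p 0.0188), with only the groups compared, and without Acot12+/+ UUO replicate 3 or Acot12-/- CL replicate 2 (0.0491 and 0.0274). Its fall in Acot12-/- mice was from 89.4, 56.5 and 94.98 to 51.1, 38.1 and 55.7 FPKM (-0.70, limma adjusted p 0.0206), a call lost without Acot12-/- CL replicate 1 or 3 or Acot12-/- UUO replicate 2.

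**Figure D3:**
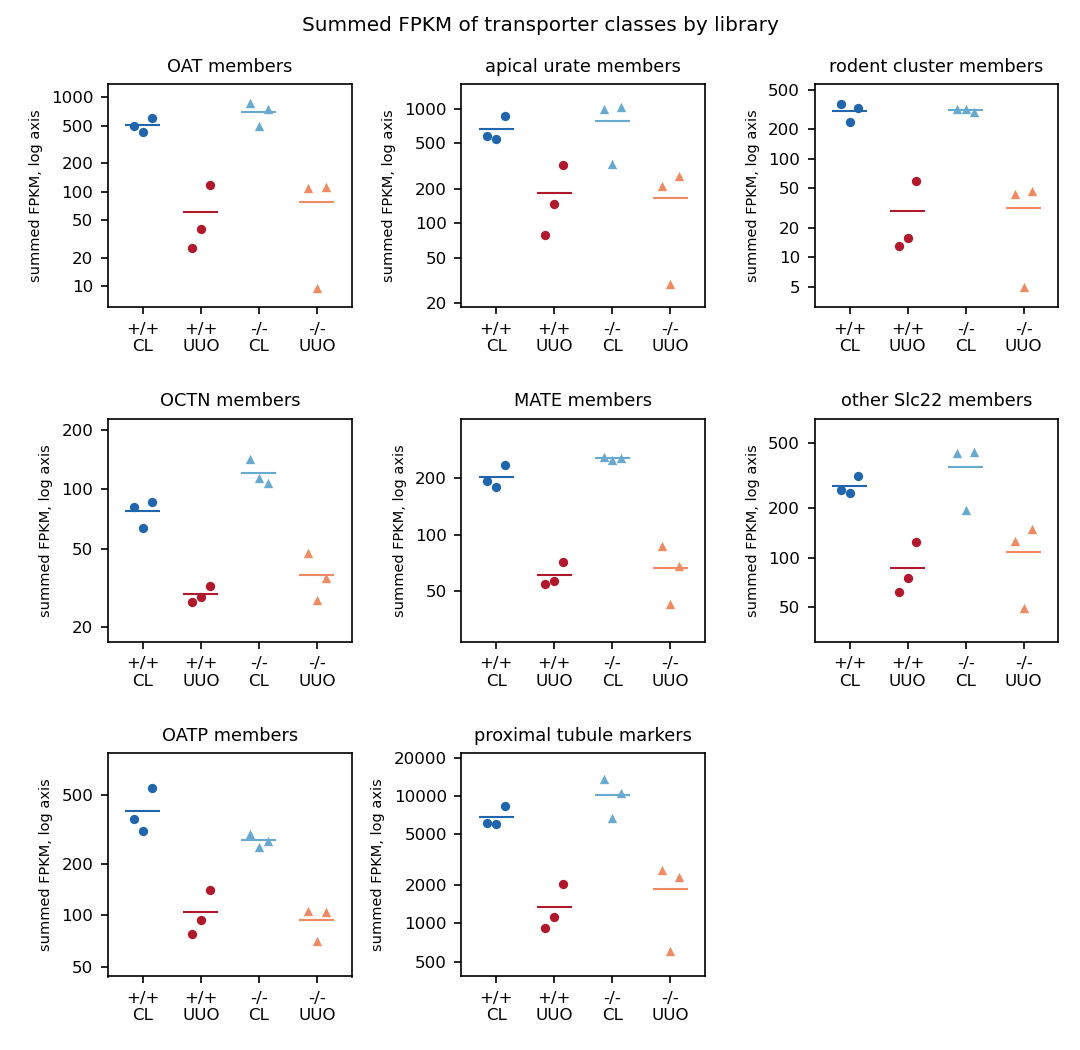
Summed FPKM (log axes) of the described genes of 7 classes, and of 13 proximal tubule markers, in each library, with the group mean as a line. In every transporter panel the mean of UUO libraries lies below that of CL libraries in both genotypes, as it does for the markers, and Acot12-/- UUO replicate 2 is the lowest library of its group in every panel.

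Libraries of a group differed from each other in the same direction for most of the 21 genes that fell in both genotypes. Acot12+/+ UUO replicate 3 was the highest of its group for 19 of the 21 genes and replicate 1 the lowest for 16. Acot12-/- UUO replicate 2 was the lowest for 19, and Acot12+/+ CL replicate 2 was the lowest for 18. Acot12-/- CL replicate 2 was the lowest of its group for 11 and the highest for 6. The proximal tubule marker sum moved with them: among UUO libraries it was 909, 1125 and 2019 FPKM for Acot12+/+ and 2608, 610 and 2322 for Acot12-/- mice, and 12 of the 13 tested markers fell in Acot12+/+ and 13 of 13 in Acot12-/- mice. The summed transporters were 38.7% to 43.6% (CL) and 46.5% to 50.9% (UUO) of that sum for Acot12+/+ mice, and 28.8% to 35.1% (CL) and 33.9% to 48.3% (UUO) for Acot12-/- mice. Fewer proximal tubule cells and less transporter mRNA per cell cannot be told apart in these bulk libraries. The summed markers of injured tubule went from 69.7 to 168 FPKM in CL to 1321 to 1662 in UUO libraries, those of macrophages from 51.0 to 156 to 604 to 808, and those of fibroblasts from 47.4 to 177 to 338 to 496 FPKM, with no marker of these lists at 0 in every library of a group. Of the distal nephron markers 9 of 9 fell in Acot12+/+ and 8 of 9 in Acot12-/- kidneys, and of the 4 podocyte markers 1 fell in each. Among 8 endothelium markers 1 rose and 3 fell in Acot12+/+ kidneys, and 6 rose and 0 fell in Acot12-/- kidneys. For scale, 46.5% and 53.1% of all genes were called in Acot12+/+ and Acot12-/- kidneys. Of the 6 tested lymphocyte markers 4 rose in Acot12+/+ and 5 in Acot12-/- kidneys. Their part in the fall of the transporters was not tested.

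The total FPKM differed between CL (799670 to 977981) and UUO libraries (491078 to 686425). After scaling to equal totals, the median of all genes moved by 0.57 in Acot12+/+ and 0.43 in Acot12-/- kidneys on the log2 scale, and 12.0% and 19.2% of the called genes were lower after UUO, compared with 48.6% and 48.2% before. Of the described genes 18 fell and 5 rose in Acot12+/+ and 22 fell and 5 rose in Acot12-/- kidneys under this scaling. Among all genes tested 7.63% were called lower and 55.8% higher in Acot12+/+, and 11.1% and 46.6% in Acot12-/- kidneys. The signs of Slco3a1, Slc22a23 (both in Acot12+/+ mice) and Slc22a17 (both genotypes) turned, none of these 4 values was called, and Slco2b1 was called higher in Acot12+/+ mice (0.996, adjusted p 0.000495). Calls of a fall were lost for Slc22a4 (-0.31, limma adjusted p 0.222), Slc22a12 (-1.30, 0.0994) and Slc22a29 (-0.75, 0.0601) in Acot12+/+ mice. That of Slco3a1 (-0.16, 0.521) was lost in Acot12-/- mice.

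The second question was whether the genotypes differed in unobstructed kidneys. Between Acot12-/- CL and Acot12+/+ CL kidneys 2 of the 29 described genes were called, both higher in Acot12-/- (0.996% of all genes tested were called higher and 3.16% lower, 4.16% in all). Slc22a23 had 25.4, 15.3 and 13.7 FPKM in Acot12-/- CL kidneys against 9.14, 8.51 and 10.2 FPKM in Acot12+/+ ones (log2 fold change 0.85, SE 0.20, limma adjusted p 0.0346). Slc22a29 had 4.46, 10.01 and 3.02 against 0.566, 2.09 and 1.63 FPKM (1.42, SE 0.35, limma adjusted p 0.0440). Each library of a genotype lay clear of the other genotype for both genes. Without Acot12-/- CL replicate 2 the differences were 0.94 (limma adjusted p 0.0130) and 1.006 (0.0401), and 3 of the 29 genes were called higher and 0 lower, beside 1496 (10.5%) higher and 1414 (9.92%) lower of all genes tested. Of the 12 fits that each lacked a library, Slc22a23 passed only in those lacking Acot12-/- CL replicate 2 or 3 or Acot12-/- UUO replicate 1 or 2 (0.59 to 1.014 over the 12), and Slc22a29 only in those lacking Acot12-/- CL replicate 2 or 3 or Acot12-/- UUO replicate 2. The 23 alternatives gave adjusted p of 0.0130 to 0.203 for Slc22a23 and 0.0206 to 0.188 for Slc22a29. With the replicate block Slc22a29 had an adjusted p of 0.0573 and Slc22a23 of 0.0296.

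The genotypes did not overlap in CL kidneys for 8 of the 29 genes, 6 higher and 2 lower in Acot12-/-, beside 8.24% and 10.4% of all genes tested. The others among the higher ones were Slc22a8 (167, 122 and 147 against 56.1, 79.4 and 80.6 FPKM), Slc22a5 (118, 91.5 and 86.7 against 63.9, 50.6 and 66.4), Slc22a4 (24.2, 22.8 and 20.5 against 17.5, 13.3 and 19.4) and Slc47a1 (260, 252 and 257 against 193, 179 and 236). None of the 4 passed the test, with limma adjusted p of 0.398, 0.125, 0.203 and 0.501. The lower ones were Slco1a1 and Slco2b1. Slco1a1 had 79.6, 22.6 and 38.4 FPKM in Acot12-/- CL kidneys against 133, 98.96 and 247 FPKM in Acot12+/+ ones, and its means of 46.8 ± 29.4 and 160 ± 77.6 FPKM (SD, n = 3) differed 3.41-fold (-1.82, SE 0.69, limma adjusted p 0.182). Without Acot12-/- CL replicate 2 it was -1.40 (limma adjusted p 0.211). Slco2b1 had 2.15, 2.52 and 2.69 against 4.07, 3.85 and 3.81 FPKM (-0.51, SE 0.18, limma adjusted p 0.164). Slco4c1 was uneven among Acot12-/- CL kidneys, with 9.35, 8.69 and 2.02 FPKM against 3.21, 2.88 and 2.88 (0.75, SE 0.35, limma adjusted p 0.296). It was called without Acot12-/- CL replicate 3 (1.33, limma adjusted p 0.00120). Slco2a1 was called higher without Acot12-/- CL replicate 2 (0.56, limma adjusted p 0.0328), and Slc22a8 without Acot12-/- UUO replicate 2 (limma adjusted p 0.0463). With both Acot12-/- kidneys of number 2 left out, 6 genes were called higher in Acot12-/- CL, among them Slc22a5, Slc22a8, Slc22a23, Slc22a29 and Slco2a1, beside 1743 of all genes called higher (12.2%) and 3203 called in either direction (22.5%). The summed markers of endothelium were 48.1 to 73.1 FPKM in Acot12-/- CL kidneys against 137 to 217 FPKM in Acot12+/+ ones, with 6 of 8 markers called lower. Macrophage sums were 51.0 to 106 and 137 to 156 FPKM with 3 of 7 called lower, lymphocyte sums were 2.96 to 4.13 and 9.12 to 15.7 FPKM with 3 of 6 called lower, fibroblast sums were 47.4 to 108 and 139 to 177 FPKM with 2 of 7 called lower, and proximal tubule sums were 6647 to 13485 and 5991 to 8396 FPKM with 0 of 13 called by limma (3 at an unadjusted p under 0.05). Their part in these differences was not tested.

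**Figure D4:**
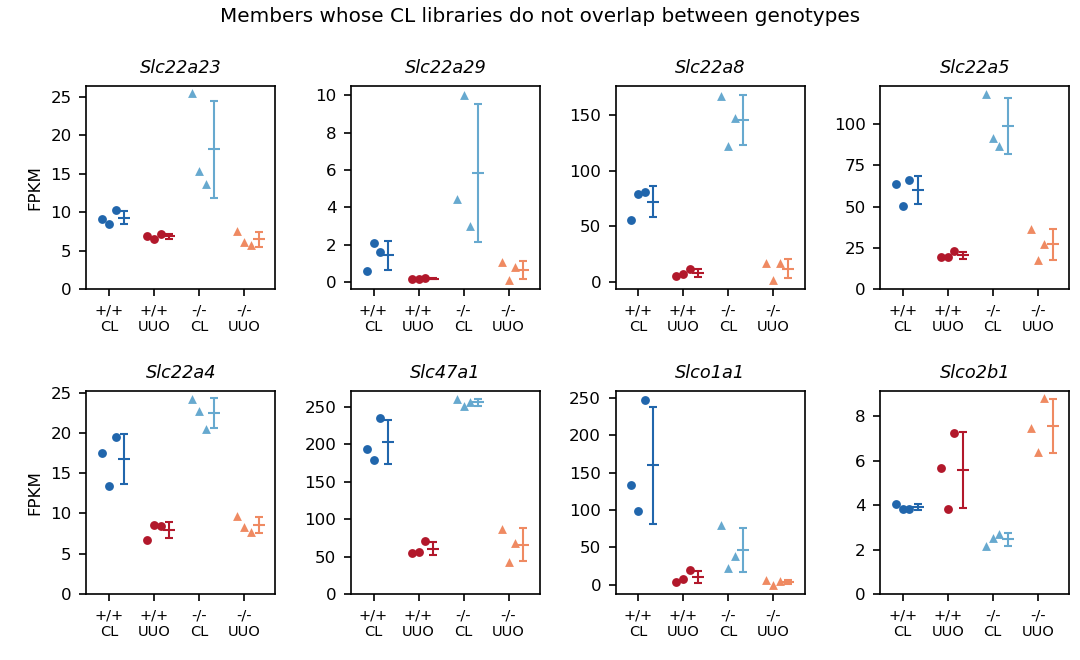
FPKM in each library (points, linear axes) with group mean and SD (bars) for the 8 genes whose CL libraries did not overlap between genotypes. Acot12-/- CL points lie above Acot12+/+ CL points in 6 panels and below them for Slco1a1 and Slco2b1, while in UUO kidneys the genotypes overlap in all 8.

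In UUO kidneys no described gene differed between the genotypes by limma, where 2 of 14260 genes (0.0140%) were called. At an unadjusted limma p under 0.05 stood 1 described gene, Slco2b1 (0.049), beside 391 of all genes tested. Without Acot12-/- UUO replicate 2 the number of described genes was 5, and their median log2 fold change went from 0.07 to 0.50. The number was 8 without both Acot12-/- kidneys of number 2. No described gene was called in either case, beside 2 of all genes in each. The share of all genes at the unadjusted threshold and their median are not given for these fits. The counts of 5 and 8 and the median of 0.50 are therefore not read as a result on the transporters. For all 29 genes the Acot12-/- UUO and Acot12+/+ UUO libraries overlapped, whereas 5.53% and 6.50% of all genes were higher or lower without overlap. The largest difference was that of Slco1a1, with 6.12, 0.246 and 4.64 against 4, 7.84 and 19.3 FPKM (log2 fold change -1.39, SE 0.69, limma adjusted p 1.00). The SE reached 1.14 for Slc22a7, so that differences of this size between genotypes would not have been detectable for it with 3 libraries a group.

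**Figure D5:**
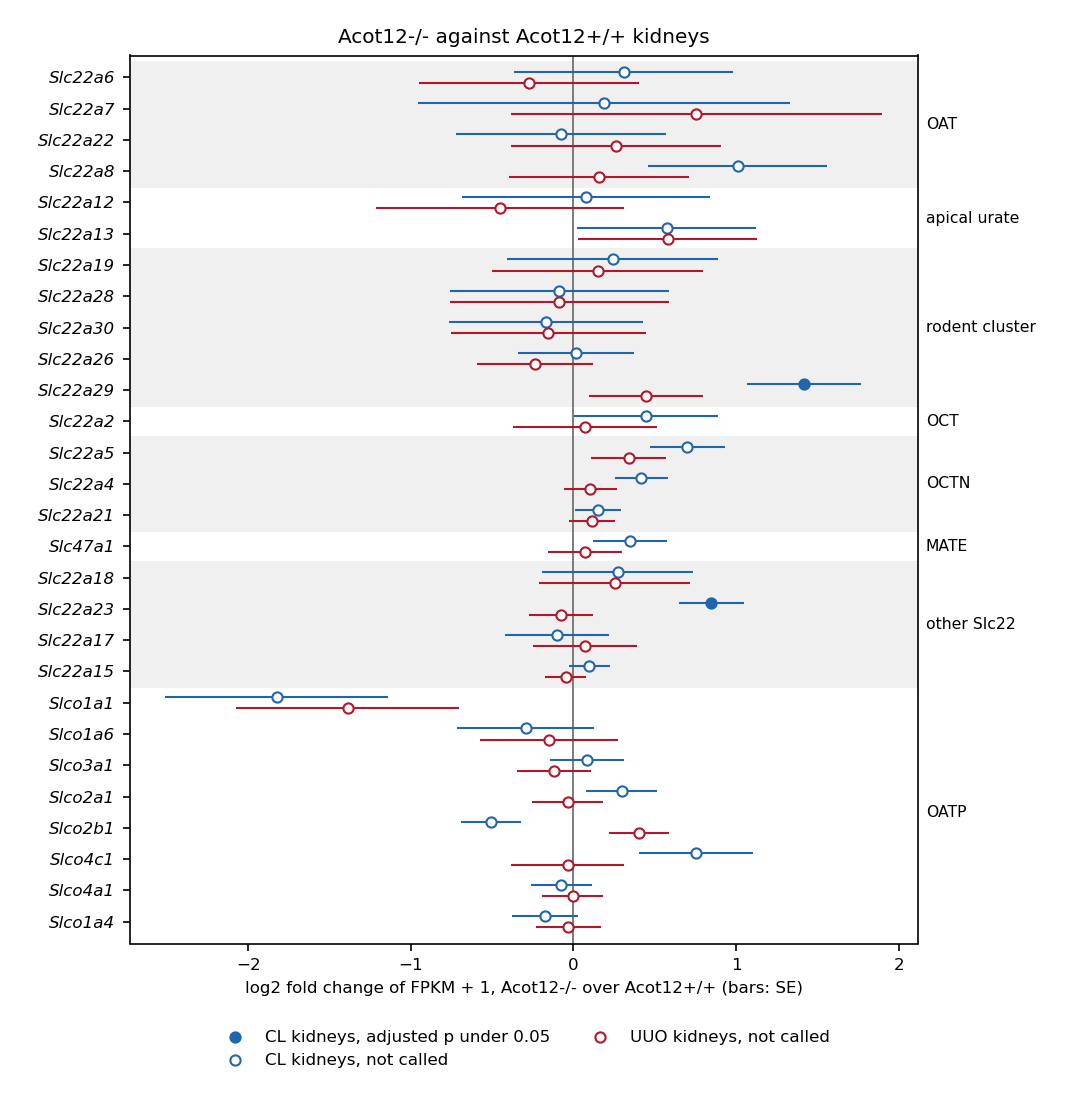
Log2 fold change of FPKM + 1 in Acot12-/- over Acot12+/+ mice for 28 of the described genes, in CL (blue) and UUO (red) kidneys, with bars of 1 SE; filled points have an adjusted p under 0.05. Slc22a23 (0.85) and Slc22a29 (1.42) in CL kidneys are the filled points, and Slco1a1 lies farthest to the left on both sides (-1.82 and -1.39).

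Whether the change with UUO differed between genotypes was tested by the interaction term. No described gene was called by limma, beside 12 of all genes (0.0842%), and 2 had an unadjusted p under 0.05 (share of all genes not given). The UUO effect on Slco2b1 was 0.91 higher in Acot12-/- than in Acot12+/+ mice on the log2 scale (SE 0.26, p 0.00436, limma adjusted p 0.177). That on Slc22a23 differed by -0.92, Acot12-/- minus Acot12+/+ (SE 0.28, p 0.00655, limma adjusted p 0.207). The 22 alternatives gave adjusted p of 0.0667 to 0.479 for Slco2b1 and 0.0572 to 0.440 for Slc22a23. Slco4c1 was called without Acot12-/- CL replicate 3 (-1.37, limma adjusted p 0.0154). The genes called in a single genotype are therefore not shown to respond differently.

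Carriers and a scaffold that work beside these transporters were followed as a list of 30 genes, of which 29 were tested. In Acot12+/+ kidneys 14 fell and 5 rose after UUO, with a median log2 fold change of -0.75, and in Acot12-/- kidneys 17 fell and 5 rose, with a median of -1.01. Of all genes tested 46.5% and 53.1% were called in either direction in these comparisons. The steepest falls in Acot12+/+ mice were those of Slc17a3 (204, 146 and 210 to 18.1, 24.6 and 43.2 FPKM; -2.73), Slc17a1 (402, 359 and 457 to 58.9, 86.9 and 117 FPKM; -2.24) and Slc13a3 (127, 141 and 177 to 25.7, 32.3 and 64.9 FPKM; -1.93). The first 2 are apical phosphate and urate carriers, and Slc13a3 is the sodium-coupled carrier of the dicarboxylates that OAT1 and OAT3 exchange. The largest rises were those of the efflux pumps Abcc3 (0.407, 0.980 and 0.272 to 4.17, 4.92 and 2.75 FPKM; 1.67) and Abcc4 (2.75, 4.71 and 3.33 to 11.6, 12.5 and 11.1 FPKM; 1.49), followed by Abcb1b (1.27, 1.59 and 1.24 to 2.17, 3.81 and 2.12 FPKM; 0.62). Abcb1b was not called in Acot12-/- mice (2.52, 5.58 and 3.03 to 2.498, 2.93 and 2.53 FPKM; -0.31, limma adjusted p 0.263), and its interaction term of -0.93 was not called either (p 0.0130, limma adjusted p 0.281). Between genotypes Abcb1b was called higher (0.94, limma adjusted p 0.0385) and the nucleoside carrier Slc29a1, named after its values were seen, lower (-0.86, limma adjusted p 0.0328) in Acot12-/- CL kidneys. Of all genes tested 4.16% were called in that comparison. The highest Abcb1b value (5.58 FPKM) was that of Acot12-/- CL replicate 2, and fits without this library are not given for these genes. In UUO kidneys 0 genes of the list were called by limma and 1 had an unadjusted p under 0.05.

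Of 12 transcription factors known to act on such transporters 11 were tested, and in Acot12+/+ kidneys 4 fell and 1 rose, while 4 fell and 2 rose in Acot12-/- kidneys. Beside the 46.5% and 53.1% of all genes called, these shares are near the background. The median log2 fold changes were -0.42 and -0.46. Named after their values were seen, Nr1h4 (-1.37), Hnf4a (-1.17) and Ppara (-0.80) were among those that fell, and Nr1i2 (1.00) rose in Acot12+/+ kidneys. These 3 also fell in Acot12-/- kidneys (-1.57, -1.60 and -1.59), where Nr1i2 (0.51) and Ahr (0.59) rose. Hnf4a encodes the hepatocyte nuclear factor whose motif was sought above. No factor of the list was called by limma between genotypes, with 2 at an unadjusted p under 0.05 in CL and 0 in UUO kidneys. Which factor acts on which of these genes was not measured here.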

How the data were processed

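RNA from kidney cortex was sequenced as 12 strand-specific libraries, 3 in each of 4 groups. The authors had a service provider trim, map and normalise the reads. The submitters' processing notes name mm10 and edgeR, and the aligner is not given in the sources used here. The deposited files hold FPKM per gene symbol, a unit read from the values because no source states it. As FPKM are not counts, edgeR was not run.

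Genes with at least 0.5 FPKM in at least 3 libraries were kept. Of these 14289 genes 29, none of them a described transporter, had a 0 beside at least 10 FPKM in the same group and were left out. For the other 14260, log2(FPKM + 1) was fitted in a single model of 4 groups with limma 3.58.1 (variance trend, R 4.3.3), and p-values were adjusted over all genes by Benjamini-Hochberg. Fold changes on this scale understate those of low genes. The fit was tested on simulated data. Other steps used Python 3.11.15. Depth limits low genes: 1 fragment per kilobase was worth 0.0435 to 0.0808 FPKM. FPKM depend on transcript lengths and a library total that the sources do not give.

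Samples with the same number were compared by the correlation of their deviations from group means. CL and UUO kidneys with the same number had r of 0.152, 0.242 and 0.299 in Acot12+/+ and 0.314, 0.174 and 0.247 in Acot12-/- mice. With different numbers r ran from -0.257 to 0.0945 in Acot12+/+ and from -0.186 to -0.0783 in Acot12-/- mice. Between genotypes, where no pairing is possible, r reached 0.355 (replicate 3 of both UUO groups). That the numbers pair kidneys within a genotype was therefore taken as an assumption. The paired fit with a replicate block was an alternative.

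All transporters past the minimum were described, except that the values of 1 of them, and of 1 transcription factor, are not reported here though both are counted. Of the partner list at most 3 falls and 3 rises were named, and Acot12 as the check of the genotype. Members and lists were chosen with earlier results of these data known. Alternatives changed the pseudocount, the filter, the scaling, the samples, the block, the variance trend, the fold required, the left-out genes and each library in turn. Promoters came from the RefSeq table of GRCm38.p6. Positions and shared 50-base words came from GENCODE transcripts of GRCm38, where all 43 symbols matched.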

Additional observations from a re-analysis of the deposited data

How the results depend on the processing

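Requiring a fold of at least 2 left 2639 genes in Acot12+/+ and 3438 in Acot12-/- kidneys for UUO against CL. It left 247 for genotype in CL kidneys. In Acot12+/+ kidneys it left 1 transporter higher with UUO in place of 4 and 18 lower in place of 21 (8.13% and 10.4% of all genes). In Acot12-/- kidneys it left 3 higher in place of 5 and 21 lower in place of 23 (12.5% and 11.6% of all genes). Between genotypes in UUO kidneys, 0 genes in place of 2 were called with a pseudocount of 0.1, no filter, median-ratio factors, only the groups compared, the replicate block, no variance trend or the genes listed at 0 kept. In CL kidneys equal totals gave 320 genes in place of 593 and only the groups compared gave 1. The interaction went from 12 genes to 19 with a pseudocount of 0.1, 0 without a filter, 0 with equal totals and 62 with the replicate block. Leaving out a library gave 5137 to 8561 genes (Acot12+/+), 6193 to 8850 (Acot12-/-), 0 to 2 (genotype in UUO), 192 to 2910 (genotype in CL) and 0 to 863 (interaction), the last 2 maxima without Acot12-/- CL replicate 2. Leaving out both Acot12-/- kidneys of number 2, which was chosen after seeing the data, gave 3203 genes for genotype in CL kidneys and 341 for the interaction.

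Of the 2 transporters called by genotype in CL kidneys, 1 was left with a pseudocount of 0.1, equal totals, the replicate block or a fold of 2, and 0 with no filter or only the groups compared, while 6 were called without both number 2 kidneys. In the order named, 5.41%, 2.24%, 4.19%, 1.73%, 2.77%, 0.00701% and 22.5% of all genes tested were called. Leaving out a library gave 0 to 3 there, 22 to 26 and 25 to 29 for UUO in Acot12+/+ and Acot12-/- mice, 0 in UUO kidneys by genotype and 0 to 1 for the interaction. The replicate block was taken to pair CL and UUO kidneys of a genotype. With it 26 and 28 transporters were called for UUO in Acot12+/+ and Acot12-/- kidneys, beside 49.7% and 55.4% of all genes. No call changed other than those of Slc22a23, Slc22a29 and Slco3a1 given above. Equal totals turned the UUO values of Slco3a1 (0.22), Slc22a17 (0.29) and Slc22a23 (0.26) in Acot12+/+ and of Slc22a17 (0.29) in Acot12-/- mice, where that of Slc22a17 ran from -0.62 to 0.09 over left-out libraries (turning to 0.0902, 0.03 and 0.03 without CL replicate 1, CL replicate 3 or UUO replicate 2). The cause was not tested. The interaction was not run on fewer groups, since it needs all 4.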
